A study of Mus musculus with 30 samples.

Results

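The genes described here are 38 genes of the cell cycle and of DNA replication, measured in the whole hypothalamus of newborn female mice. They were chosen by name and not by their values, and each gene was read by its brightest probe set, the set with the highest mean log2 signal over 30 arrays. Of the 38, 37 had a probe set that carries the gene's symbol alone in the annotation used here, among 18193 genes with such a set, and Ccnb1 had none. E2f1 and Tyms lay in the lowest 40% of signals, which was left out, so 35 members were tested: 10 of 11 genes of the G1 phase, 9 of 10 of DNA replication and nucleotide supply, and 16 of 17 of G2 and mitosis. All mice were C57BL/6J females of about 1.4 g, injected under the skin on the day of birth (D0). The EB-treated mice received 7.5 μg of estradiol benzoate, an esterified estrogen, in 20 μl of peanut oil, and the vehicle-treated mice received the oil alone. The hypothalamus was taken 1, 3, 6, 12 or 24 h later, with 3 arrays per treatment and time, each from a separate biological sample. Which samples shared a litter is not given in the sources used here, so the p-values measure the spread between these samples.

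A dividing cell passes from G1 through the phase of DNA synthesis and G2 into mitosis. D-type cyclins bind Cdk4 or Cdk6 and E-type cyclins bind Cdk2, these kinases inactivate the retinoblastoma protein, and E2F factors then switch on genes of replication, among them the Mcm subunits of the helicase that opens the DNA. The inhibitors Cdkn1b (p27) and Cdkn1c (p57) hold the kinases back and accompany exit from the cycle. Genes of G2 and mitosis are switched on later, through promoter elements named CHR and CCAAT. Around birth most hypothalamic neurons have stopped dividing, while glial progenitors, vessel cells and microglia still divide. In bulk tissue, fewer dividing cells and less of a transcript per cell cannot be told apart.

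The deposited MAS5 signals had medians from 28.03 to 66.9 per array, with 52.9 to 66.9 in the 12 h arrays and 28.03 to 44.0 in the others, so all arrays were first brought to a common median, the mean of the 30 medians. The signals given below are these scaled signals, and differences are on the log2 scale. The 3′ to 5′ signal ratio of the Gapdh control lay between 0.648 and 0.763 and that of the actin control between 1.27 and 1.44, and no arrays held identical values. Of 12 hypothalamic marker genes 10 were tested (Rax was below the filter and Agrp had no probe set), and Avp, the vasopressin gene, ranged from 1050 to 2320. None of the 6 pituitary markers with a probe set passed the filter. Their summed signal was at most 53.2 in 6 groups and reached 132 in EB 3 h, 145 in oil 12 h, 208 in EB 12 h and 232 in EB 24 h. Time after injection, age, time of day and any array batch that follows time cannot be told apart. At 3 arrays against 3, an exact permutation test cannot give a p below 0.1, and the number of arrays limits the precision. Groups without overlap were common over all probe sets. Against oil 1 h they were seen for 4 of 35 members at 3 h (15.2% of all probe sets) and 7 at 6 h (35.1%). They were seen for 12 members at 12 h (47.4%) and 10 at 24 h (30.7%). In EB at 24 h against 1 h they were seen for 16 members (32.1%).

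Over the first day in vehicle-treated mice, 5 of the 9 cell cycle genes that changed were of G1, and the genes of mitosis mostly did not pass the test. By limma, with p adjusted over 27022 probe sets and a threshold of 0.05, 9 of 35 members (25.7%) changed over the 5 times, against 34.1% of all probe sets tested. The 9 were 5 of 10 G1 genes (Ccnd1, Ccnd2, Cdk4, Cdkn1b and Cdkn1c), 3 of 9 replication genes (Mcm2, Mcm5 and Mcm6) and 1 of 16 mitotic genes (Cdc20). The mitotic members were dimmer, with mean log2 signals of 4.49 to 6.85, against 7.69 to 9.50 for these 5 G1 genes. The part of signal level in the difference between roles was not tested. By these brightest sets the share of members that changed was not above that of the whole array. Of the 26 other tested sets of members, several of them of the same gene, 15 passed. Without any scaling 34 of 35 members and 94.8% of all probe sets passed this test, so its outcome depends on whether the arrays are scaled. With quantile normalization Mcm7 passed (adjusted p = 0.036 from limma) and Mcm2 did not. The rest of the 9 members passed there again.

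**Figure D1:**
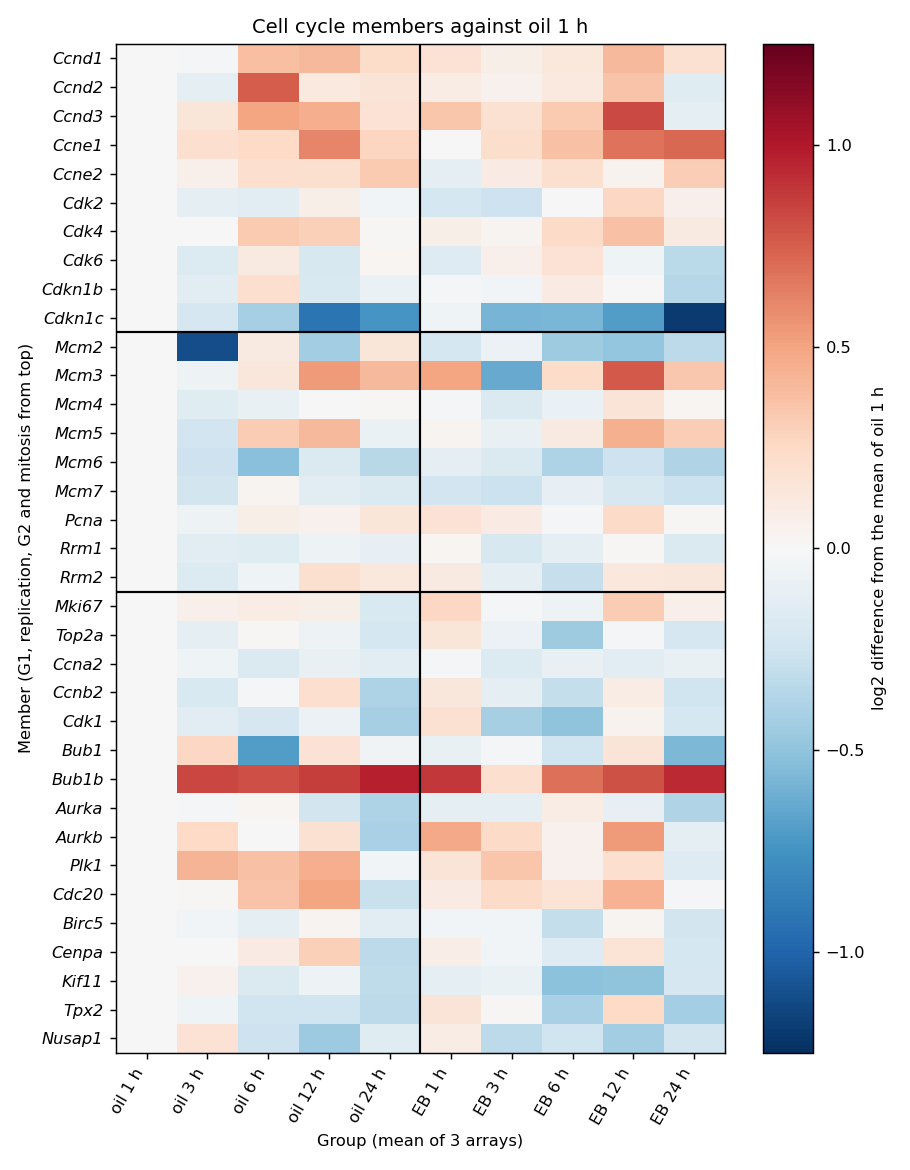
Mean log2 signal of each of the 35 tested members (rows, by role) in each group of 3 arrays (columns), as the difference from the mean of oil 1 h. Red is higher and blue lower. Cdkn1c darkens to blue with time in both treatments, Ccnd1, Ccnd3 and Cdk4 are red at 6 h and 12 h in oil and Ccnd2 at 6 h, and most rows of the mitotic block are pale blue at 24 h. The red row of Bub1b rests on 1 low array of oil 1 h at 3.9, where the other arrays of that group read 24.7 and 27.6.

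Cdkn1c, which encodes the kinase inhibitor p57, had the smallest p among the brightest sets of the members (F = 9.24, adjusted p = 0.00083 from limma). In oil its signals (probe set 1417649_at, its only one) were 716.5, 710.0 and 607 at 1 h, 631, 571 and 554.5 at 3 h, 422, 503.5 and 612 at 6 h, 458, 312 and 325 at 12 h, and 462.5, 364 and 399 at 24 h. In EB they were 690.3, 659 and 613 at 1 h, 388, 449 and 534 at 3 h, 568, 437 and 376 at 6 h, 396, 313 and 585 at 12 h, and 305, 292 and 288.5 at 24 h. Every array at 24 h, in either treatment, lay below every array at 1 h, and the oil arrays of 12 h also lay below those of 1 h. In oil Cdkn1c fell by 0.91 at 12 h (SE 0.17, adjusted p = 0.00023) and by 0.73 at 24 h (SE 0.17, adjusted p = 0.011 from limma). In EB it fell by 1.15 from 1 h to 24 h (SE 0.17, adjusted p = 0.00013 from limma). The falls in oil and EB differed by -0.41 (SE 0.25, 95% interval -0.91 to 0.09, adjusted p = 0.48 from limma). Over the same interval all 12 leptomeningeal fibroblast markers fell in EB (median -3.27) and 0 of 12 changed in oil, and their part in the fall in EB was not tested. Without scaling the fall at 12 h in oil no longer passed, and without oil 24 h replicate 2 the fall at 24 h in oil had an adjusted p of 0.057 from limma.

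Cdkn1b, which encodes the related inhibitor p27, was the brightest G1 member. Its signals in oil (1434045_at) were 733, 788 and 733 at 1 h, 607, 747 and 705 at 3 h, 788, 961 and 869.6 at 6 h, 695, 523 and 789 at 12 h, and 705, 732.5 and 691 at 24 h. In EB they were 788, 738.5 and 711.5 at 1 h, 753, 667 and 792 at 3 h, 759, 757 and 915.5 at 6 h, 724, 734.5 and 798 at 12 h, and 609, 530.5 and 622 at 24 h. The oil arrays stood highest at 6 h, and the 3 EB arrays of 24 h lay below every other array but oil 12 h replicate 2 and oil 3 h replicate 1. It changed over time in oil (F = 3.99, adjusted p = 0.036 from limma), with no single time past the test against 1 h, and fell by 0.35 in EB from 1 h to 24 h (SE 0.11, adjusted p = 0.042 from limma). Its dimmer probe set 1419497_at changed over time in oil with a smaller p than Cdkn1c (F = 11.6, adjusted p = 0.00022 from limma). That set fell by 1.98 in oil at 12 h, where the brighter one was at -0.19. For the brighter set the change in oil was lost without oil 6 h replicate 2 or replicate 3 (smallest F = 2.21), and the fall in EB without any of the EB 1 h arrays or without EB 24 h replicate 1 or 2 (adjusted p up to 0.185 from limma).

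Of the D-type cyclins, which start the G1 kinases, Ccnd1 and Ccnd3 stood highest at 6 h and 12 h in oil, as did their partner Cdk4, and Ccnd2 stood highest at 6 h. For Ccnd1 (1417420_at) the oil signals were 209.6, 183 and 152 at 1 h, 202, 186 and 150.3 at 3 h, 216, 239 and 249.8 at 6 h, 215, 252 and 249.6 at 12 h, and 207, 206 and 219.5 at 24 h. The EB signals were 213, 190.3 and 210.1 at 1 h, 184, 166 and 224 at 3 h, 193, 199 and 202 at 6 h, 279, 236 and 206 at 12 h, and 216.5, 197 and 204 at 24 h. The oil arrays of 6 h and of 12 h lay above all those of 1 h. Ccnd1 changed over time in oil (F = 5.15, adjusted p = 0.014 from limma) and rose by 0.38 at 6 h (SE 0.12, adjusted p = 0.037) and by 0.40 at 12 h (SE 0.12, adjusted p = 0.015 from limma). Of its other tested probe sets, 1448698_at was at 0.47 and 0.49 at these times and 1417419_at at -0.01 and -0.17. The rise at 6 h did not pass without oil 1 h replicate 2 or 3 or oil 6 h replicate 2 or 3 (0.26 at the least), nor that at 12 h without oil 1 h replicate 3 or oil 12 h replicate 2 or 3 (0.28 at the least). The call at 6 h was also lost in 5 of 10 other alternatives, namely without scaling, without the filter, without moderation, with the mean of all probe sets and with limma fitted to only the arrays compared. That last fit also lost the rises of Ccnd2 and Cdk4 at 6 h.

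Ccnd2 was high in 1 array of oil 6 h in particular. Its oil signals (1434745_at) were 419, 356 and 356 at 1 h, 334, 348 and 350.2 at 3 h, 437, 1099 and 530.4 at 6 h, 411, 405 and 411 at 12 h, and 425, 399.6 and 433 at 24 h. In EB they were 385, 404 and 410.0 at 1 h, 336, 410.4 and 428 at 3 h, 418, 346 and 468 at 6 h, 471, 407 and 579 at 12 h, and 437, 319 and 281 at 24 h. All 3 oil arrays of 6 h lay above the 12 other oil arrays, and the array with 1099 was replicate 2. Ccnd2 changed over time in oil (F = 5.89, adjusted p = 0.008) and rose by 0.75 at 6 h (SE 0.20, adjusted p = 0.010 from limma), and its 5 other tested probe sets were between 0.88 and 1.11 at that time. Of these other sets 1448229_s_at had the largest F over time in oil (13.7, adjusted p = 6.76e-05 from limma), above that of Cdkn1c. For the brightest set the rise was 0.36 without oil 6 h replicate 2 (adjusted p = 0.12 from limma).

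For Cdk4 (1422441_x_at) the oil signals were 435, 454 and 338.5 at 1 h, 443, 374 and 403 at 3 h, 470.3, 527 and 537 at 6 h, 496, 478.5 and 528 at 12 h, and 408, 458 and 367 at 24 h. In EB they were 398, 484 and 408 at 1 h, 418, 399.8 and 432 at 3 h, 501, 432 and 505 at 6 h, 541, 487 and 546 at 12 h, and 430.2, 441 and 442 at 24 h. In oil every array of 6 h and 12 h exceeded every array of the other times. Cdk4 changed over time (F = 5.61, adjusted p = 0.0098) and rose by 0.33 at 6 h (SE 0.10, adjusted p = 0.027) and by 0.30 at 12 h (SE 0.10, adjusted p = 0.025 from limma). Another set of the gene, 1422440_at, was at 0.29 and 0.22, and 1422439_a_at was at 0.06 and 0.01. Without oil 1 h replicate 3 neither rise passed, nor did that at 6 h without oil 6 h replicate 2 or 3 (0.20 at the least) or that at 12 h without oil 12 h replicate 1 or 3 (0.17 at the least).

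2 cyclins whose F test did not pass did so at 12 h against 1 h in oil. Ccnd3 (1415907_at) read 132, 111.5 and 87.3 at 1 h and 158, 144 and 146 at 12 h and rose by 0.46 (SE 0.17, adjusted p = 0.046 from limma). Ccne1, the cyclin that partners Cdk2 (1441910_x_at), read 35.2, 33.6 and 35.8 at 1 h and 45.9, 57.6 and 57.1 at 12 h and rose by 0.61 (SE 0.18, adjusted p = 0.010 from limma). The groups did not overlap for either gene, and the rise of Ccnd3 did not pass in 13 of the 30 fits without 1 array (0.30 at the least). In EB, Ccne1 read 36.4, 32.9 and 34.96 at 1 h and 52.9, 60.7 and 58.55 at 24 h, with no overlap, and rose by 0.72 (SE 0.18, adjusted p = 0.009 from limma). The other tested set of Ccne1, 1416492_at, was at 0.04 and -0.17 in these comparisons. The brightest sets of Ccne2, Cdk2 and Cdk6 passed no test.

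**Figure D2:**
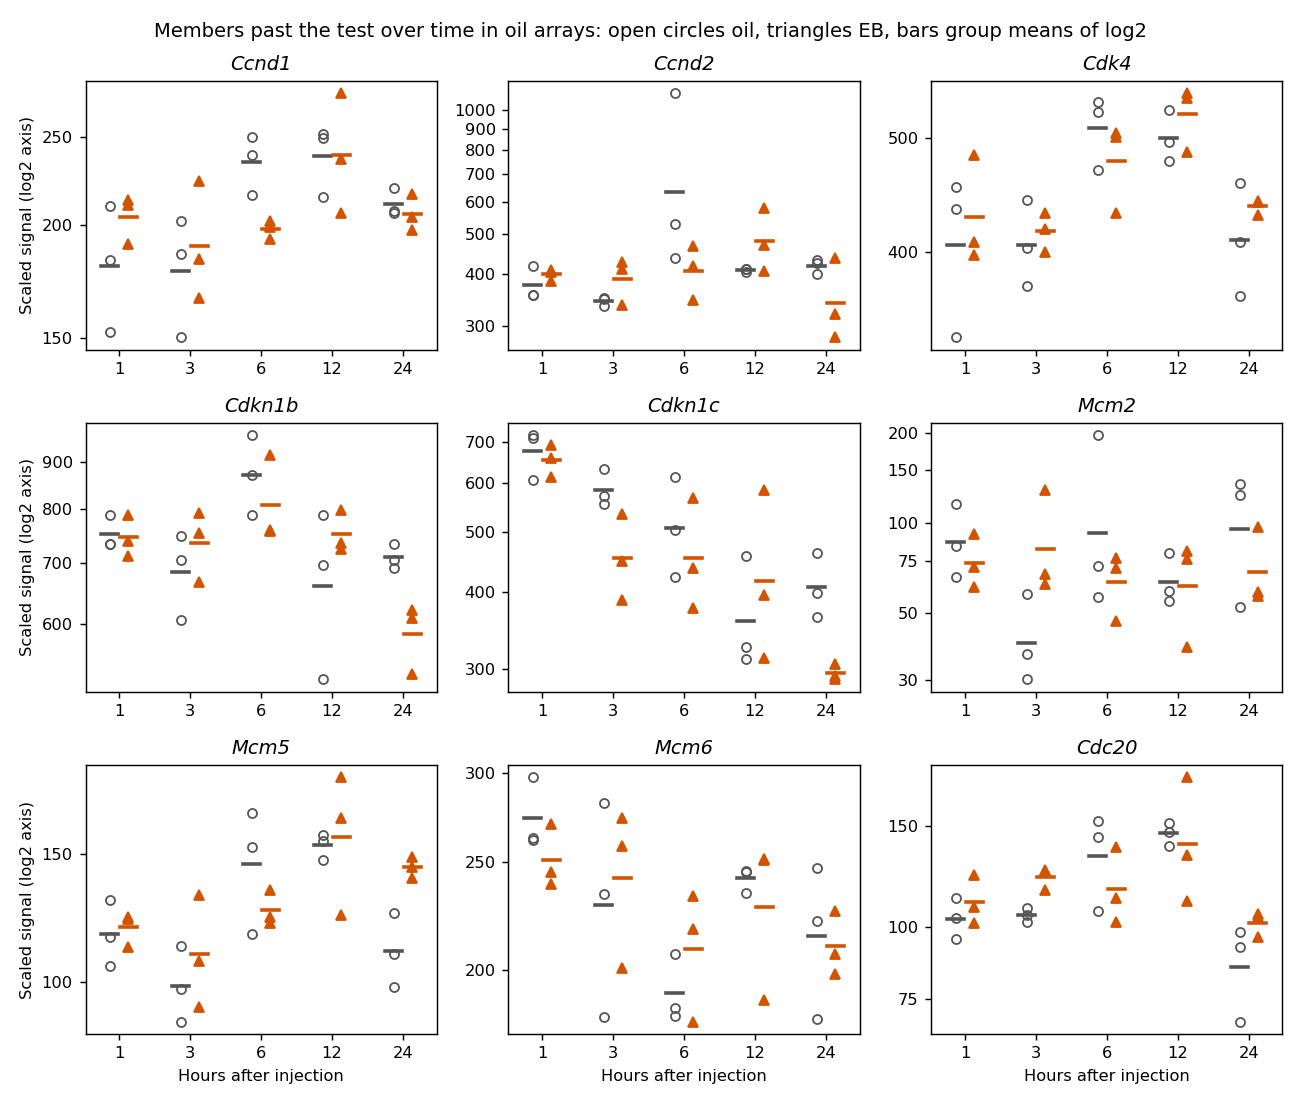
Scaled signal (y axis, log2 spaced) of the 9 members that changed over time in oil, against hours after injection (x axis, evenly spaced times), with 1 point per array, open circles for oil, triangles for EB and bars at the mean of log2 signals of 3 arrays. Cdkn1c declines from 607 or more in oil at 1 h to 462.5 or less at 24 h, Ccnd2 has 1 oil array at 1099 at 6 h, and Cdk4 in oil stands higher at 6 h and 12 h than at the other times.

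Of the replication genes Mcm2, Mcm5 and Mcm6 changed over time in oil. Pcna, the sliding clamp of the replicative polymerases and the brightest member of all (1417947_at), read in oil 1133, 1134 and 1173 at 1 h, 1131, 1004 and 1164 at 3 h, 1130.0, 1298 and 1192 at 6 h, 1132, 1232 and 1202 at 12 h, and 1282, 1267 and 1275 at 24 h. In EB it read 1281, 1388 and 1226 at 1 h, 1168, 1155 and 1369 at 3 h, 1087, 1047 and 1263 at 6 h, 1483, 1345 and 1248 at 12 h, and 1122, 1190.0 and 1165 at 24 h. The oil arrays of 24 h lay above those of 1 h, whereas the EB arrays of 24 h lay below those of 1 h. Pcna passed neither the test over time in oil (F = 1.99, adjusted p = 0.21) nor that of the treatment by time interaction (F = 3.97, adjusted p = 0.18 from limma). With array weights, which give noisier arrays less weight, its interaction passed (F = 6.29, adjusted p = 0.034 from limma).

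Mcm5 (1436808_x_at), a subunit of the replicative helicase, read in oil 105, 115 and 129.6 at 1 h, 88.0, 97.5 and 112 at 3 h, 116, 171 and 154 at 6 h, 159.8, 156.5 and 147 at 12 h, and 109, 98.2 and 124 at 24 h. In EB it read 112, 123 and 122 at 1 h, 107, 92.1 and 132 at 3 h, 123, 134 and 121 at 6 h, 192, 168 and 123.5 at 12 h, and 144, 149 and 139 at 24 h. In oil the arrays of 12 h lay above those of 1, 3 and 24 h. Mcm5 changed over time (F = 6.67, adjusted p = 0.0045) and rose by 0.41 at 12 h (SE 0.15, adjusted p = 0.038 from limma), where its other tested set, 1415945_at, was at -0.20. The rise did not pass without oil 1 h replicate 1 or 2 or without any 1 of the oil 12 h arrays (0.34 at the least).

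Mcm6 (1416251_at) read in oil 297, 261.5 and 262.5 at 1 h, 182, 234 and 282 at 3 h, 185, 182 and 207 at 6 h, 245, 234.5 and 245 at 12 h, and 181, 247 and 221 at 24 h. In EB it read 270.4, 245 and 239 at 1 h, 258, 201 and 274 at 3 h, 179.9, 218 and 233 at 6 h, 251, 251 and 188 at 12 h, and 198.5, 207 and 226 at 24 h. The oil arrays of 6 h all lay below those of 1 h. Mcm6 changed over time in oil (F = 3.69, adjusted p = 0.046) and fell by 0.52 at 6 h (SE 0.14, adjusted p = 0.013 from limma), while its other tested set, 1438852_x_at, was at 0.07. The fall did not pass without oil 1 h replicate 1 (adjusted p = 0.0627 from limma). The F test of Mcm6 did not pass in 19 of the 30 fits that each left out 1 array (smallest F = 2.54).

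Mcm2 (1434079_s_at) read in oil 83.9, 65.9 and 116 at 1 h, 30.02, 36.4 and 57.9 at 3 h, 56.6, 197 and 72.1 at 6 h, 59.2, 79.65 and 55.0 at 12 h, and 135, 124 and 52.5 at 24 h. In EB it read 71.3, 92.3 and 61.2 at 1 h, 62.6, 129 and 67.6 at 3 h, 76.6, 70.6 and 47.1 at 6 h, 76.1, 80.7 and 38.5 at 12 h, and 59.0, 96.8 and 57.1 at 24 h. Single arrays stood out, as at 6 h in oil, and the 3 oil arrays of 3 h lay below all those of 1 h. It changed over time in oil (F = 3.75, adjusted p = 0.044 from limma), but no time passed against 1 h. Its other tested set, 1448777_at, was lower at 6 h (-0.74, adjusted p = 0.024) and at 12 h (-0.68, adjusted p = 0.023 from limma). In EB that set was at -0.69 at 24 h against 1 h (adjusted p = 0.0493 from limma). The F test of the brighter set did not pass in 9 of the 30 fits without 1 array (smallest F = 2.15). At 3 h all 9 replication members had a negative difference from 1 h in oil, with a median of -0.17, where the median of all probe sets was -0.01 and 53.4% of them were negative. None of the 9 passed at 3 h, when 0% of all probe sets did. The brightest sets of Mcm3, Mcm4, Mcm7, Rrm1 and Rrm2 passed no test in the fit described here. Dimmer sets of 3 of these passed in oil: for Mcm4, another helicase subunit, 1436708_x_at was at 0.88 at 12 h (adjusted p = 0.0022) and 0.67 at 24 h (adjusted p = 0.0498 from limma). For Mcm7, also of the helicase, 1416030_a_at was at -0.41, -0.39 and -0.63 at 6, 12 and 24 h (adjusted p = 0.029, 0.023 and 0.0038 from limma). In EB at 24 h against 1 h another set of Mcm7, 1439269_x_at, was at 0.56 (adjusted p = 0.037 from limma), where 1416030_a_at was at -0.21. For Rrm1, the large subunit of the reductase that makes deoxynucleotides, 1448127_at was at -0.44 at 12 h (adjusted p = 0.0047 from limma).

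Among the mitotic genes Cdc20, the activator of the anaphase-promoting complex, was the brightest and was the 1 member of 16 that changed over time in oil. With array weights 13 members passed this test, among them the mitotic cyclin Ccnb2 (adjusted p = 0.012) and the centromeric histone Cenpa (adjusted p = 0.033 from limma), and Ccnb2 also passed when limma was fitted to the oil arrays alone (adjusted p = 0.033). The oil signals of Cdc20 (1439377_x_at) were 112, 104 and 95.3 at 1 h, 102, 105 and 108 at 3 h, 107, 153.5 and 143 at 6 h, 152, 139 and 147 at 12 h, and 98.3, 92.3 and 68.5 at 24 h. In EB they were 102, 108 and 124 at 1 h, 116, 125 and 126 at 3 h, 138, 102 and 112.5 at 6 h, 182.5, 134 and 111 at 12 h, and 105, 104 and 96.1 at 24 h. The oil arrays of 12 h lay above all those of 1, 3 and 24 h. Cdc20 (F = 7.92, adjusted p = 0.0019 from limma) rose by 0.49 at 12 h (SE 0.16, adjusted p = 0.016), and its other tested set, 1416664_at, was at 0.17 there. The rise did not pass without oil 1 h replicate 3 or oil 12 h replicate 1 (adjusted p up to 0.0678 from limma). Cdc20, Mcm5, Cdk4 and Ccne1 were each read by a set whose suffix, _x_at, marks probes that can also match other sequences. Dimmer sets named above for Mcm4, Mcm6 and Mcm7 carry it too.

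At 24 h against 1 h most of the other mitotic genes had negative differences, and none passed the test. Members read from the same arrays are not replicates, so the counts of signs are not a test. In oil 15 of 16 mitotic members had a negative difference, with a median of -0.25, where 42.0% of all probe sets were negative and their median was 0.05. In EB, with other arrays of the same times, 15 of 16 were negative with a median of -0.31, against 47.5% of all probe sets and a median of 0.02. Bub1b, a checkpoint kinase, was the positive one in each, at 0.97 in oil (SE 0.52) and 0.04 in EB. None of the 16 passed in either treatment. Cdk1, the kinase that drives mitosis, read 109, 86.0 and 85.1 at 1 h and 59.75, 81.4 and 68.3 at 24 h in oil, a difference of -0.42 (SE 0.19, adjusted p = 0.18 from limma). In EB it read 99.9, 111 and 107 at 1 h and 76.3, 78.95 and 84.2 at 24 h, a difference of -0.41 (SE 0.19, adjusted p = 0.17 from limma). The groups of Cdk1 did not overlap in either treatment. Mki67, the proliferation marker Ki-67, read 84.9, 83.2 and 79.8 at 1 h and 67.6, 77.4 and 72.3 at 24 h in oil, a difference of -0.19. The count of negative mitotic members in oil was 13 to 15 over the 30 fits without 1 array (14 to 16 in EB), and 15 with quantile normalization. It was also 15 without scaling, but there the median of all probe sets was itself -0.25. That count therefore cannot show a lean of the mitotic genes in particular. Marker genes of neural progenitors and radial glia had a median of -0.02 in oil and -0.15 in EB over the same interval, with 1 of 13 higher and 0 lower in oil and 1 higher and 3 lower in EB, and their part in these differences was not tested.

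**Figure D3:**
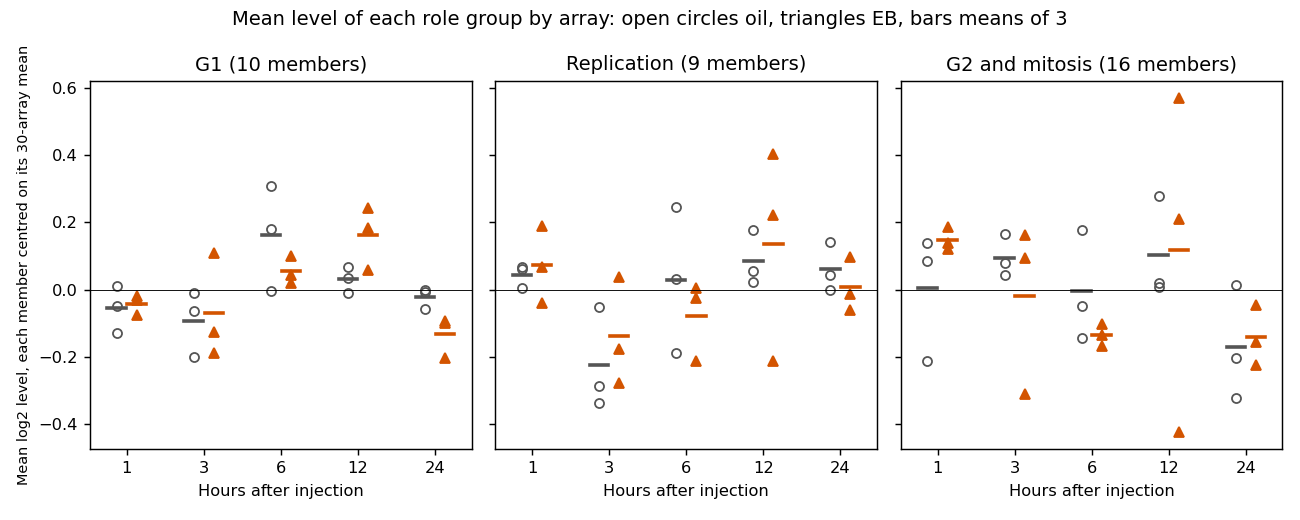
Mean log2 level of the tested members of each role in each array, every member centred on its own mean over 30 arrays (y axis), against hours after injection (x axis, evenly spaced times), with open circles for oil, triangles for EB and bars at means of 3 arrays. The mitotic means lie between -0.32 and 0.02 in oil and between -0.22 and -0.05 in EB at 24 h, and the 3 EB arrays of 12 h spread from -0.42 to 0.57.

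Counted by time, in oil 0 of 35 members passed at 3 h (0% of all probe sets), with 2 members and 10.6% of all probe sets at an unadjusted p under 0.05. Then 4 passed at 6 h (11.4%, against 15.4% of all), 7 at 12 h (20.0%, against 30.6%) and 1 at 24 h (2.86%, against 6.77%). In EB 3 passed at 24 h against 1 h (8.57%, against 10.2%). Cdkn1c was the member that passed at 24 h in both treatments. Of the 26 tested sets of members that were not the brightest, 15 passed over time in oil by limma, where 34.1% of all probe sets did. Against oil 1 h 9 of them passed at 6 h (15.4% of all), 6 passed at 12 h (30.6%) and 2 passed at 24 h (6.77%). In EB 2 of them passed at 24 h against 1 h (10.2% of all). Several of the 26 are sets of the same gene. From 1 h to 24 h 27 of the 35 members (77.1%) had the same sign in oil and EB, against 62.8% of all probe sets. No member passed the test of the difference between the 24 h changes in EB and oil, which 0.995% of all probe sets passed, and 2 members, Ccnd3 and Pcna, had an unadjusted p under 0.05, as had 13.6% of all. At 12 h in oil 7 of 9 microglial markers were higher than at 1 h (median 0.63, summed signal 1170 to 1340 against 793 to 885), as were 3 of 8 oligodendrocyte progenitor markers (median 0.22), while 2 of 13 neural progenitor markers were higher and 3 lower and 2 of 12 neuronal markers were higher and 4 lower. At 6 h 4 of 9 microglial markers (median 0.55), 1 of 9 endothelial markers and the 1 tested erythroid marker were higher, and 5 of 12 neuronal, 2 of 13 neural progenitor and 1 of 8 oligodendrocyte progenitor markers were lower. The summed microglial signal in EB was already 1100 to 1350 at 1 h, so the oil 1 h group was low beside it. The part of all these markers in the 6 h and 12 h values was not tested. The 12 h count depends most on scaling: without it the median of all probe sets moved to 0.81 at 12 h, 29 members were higher and none lower, whereas quantile normalization gave 2 higher and 2 lower.

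In the 250 bases before the start sites, CHR elements were commonest in the mitotic genes, E2F elements in the replication genes, and CCAAT was found in most genes of both roles. RefSeq windows (build GRCm38.p6) were matched by symbol for 30 of 38 members, and were searched on both strands for CHR (TTTGAA or TTCGAA), for CCAAT and for E2F (TTTCGCGC, TTTCCCGC, TTTGGCGC or TTTGCCGC). A CHR was found in 7 of 14 mitotic genes (50%), 2 of 9 replication genes and 0 of 7 G1 genes, against 19.6% of all 27025 genes. A CCAAT was found in 12 of 14, 8 of 9 and 3 of 7, against 37.5% of all genes, and an E2F element in 1 of 14, 3 of 9 and 1 of 7, against 2.16%. All 7 mitotic genes with a CHR (Mki67, Top2a, Ccnb2, Cdk1, Bub1b, Cdc20 and Kif11) also held a CCAAT. These shares describe the listed letters only. The windows shown are those of the member with the smallest p over time in oil, by brightest set, within each role that has an entry. They set these elements beside the signals above, and are printed in lower case, 5′ to 3′, with matches in capitals. They are chr4:118437344-118437593 on the minus strand for Cdc20, chr8:75109259-75109508 on the plus strand for Mcm5 and chr10:127063285-127063534 on the plus strand for Cdk4.
Cdc20: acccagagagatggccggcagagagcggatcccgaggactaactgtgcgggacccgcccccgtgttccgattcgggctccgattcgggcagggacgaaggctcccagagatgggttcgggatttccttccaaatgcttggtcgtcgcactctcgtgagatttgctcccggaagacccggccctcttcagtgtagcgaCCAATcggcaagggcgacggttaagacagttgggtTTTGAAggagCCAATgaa
Mcm5: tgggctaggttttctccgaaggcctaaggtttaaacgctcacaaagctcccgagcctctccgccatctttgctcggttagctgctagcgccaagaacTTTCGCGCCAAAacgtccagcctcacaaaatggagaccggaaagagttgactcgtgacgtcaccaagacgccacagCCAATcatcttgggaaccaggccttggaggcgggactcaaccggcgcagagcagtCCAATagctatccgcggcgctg
Cdk4: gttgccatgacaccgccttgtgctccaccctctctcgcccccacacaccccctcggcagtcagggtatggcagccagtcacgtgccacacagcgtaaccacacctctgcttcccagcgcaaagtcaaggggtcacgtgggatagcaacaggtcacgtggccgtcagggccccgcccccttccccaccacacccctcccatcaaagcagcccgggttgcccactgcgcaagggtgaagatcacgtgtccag
In Cdc20 the CHR begins 18 bases before the start, between CCAAT letters that begin 53 and 8 bases before it. In Mcm5 the overlapping E2F letters TTTCGCGC and GCGCCAAA, the latter a match on the opposite strand, begin 153 and 149 bases before the start, and CCAAT letters begin 77 and 22 bases before it. The Cdk4 window holds none of the letters searched.

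EB against oil was the comparison of estrogen with vehicle at each time, and no member passed it. By limma 0 of 35 members passed at 1 h (0.0037% of all probe sets passed), 3 h (0.474%), 6 h (0%), 12 h (0%) and 24 h (2.77%), and 0 passed when the 5 times were averaged (0.074%) or in the treatment by time interaction (0.951%). At an unadjusted p under 0.05 there were 2, 2, 2, 2 and 5 members at the 5 times in that order (8.63%, 12.8%, 6.02%, 6.57% and 15.7% of all probe sets), 2 in the average (8.69% of all) and 4 in the interaction (16% of all). The median difference over the members was 0.08, -0.00, -0.13, 0.04 and -0.03 at the 5 times, where all probe sets had 0.02, 0.05, 0.02, -0.01 and -0.01. The 95% confidence interval of a member at a given time extended a median of 0.38 on either side, from 0.17 to 1.05, and 31 or 32 of 35 intervals lay within a log2 difference of 1 at each time. Averaged over the 5 times the median extent was 0.17 and all 35 intervals lay within 1. The p of these members does not show that EB and oil gave equal levels.

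**Figure D4:**
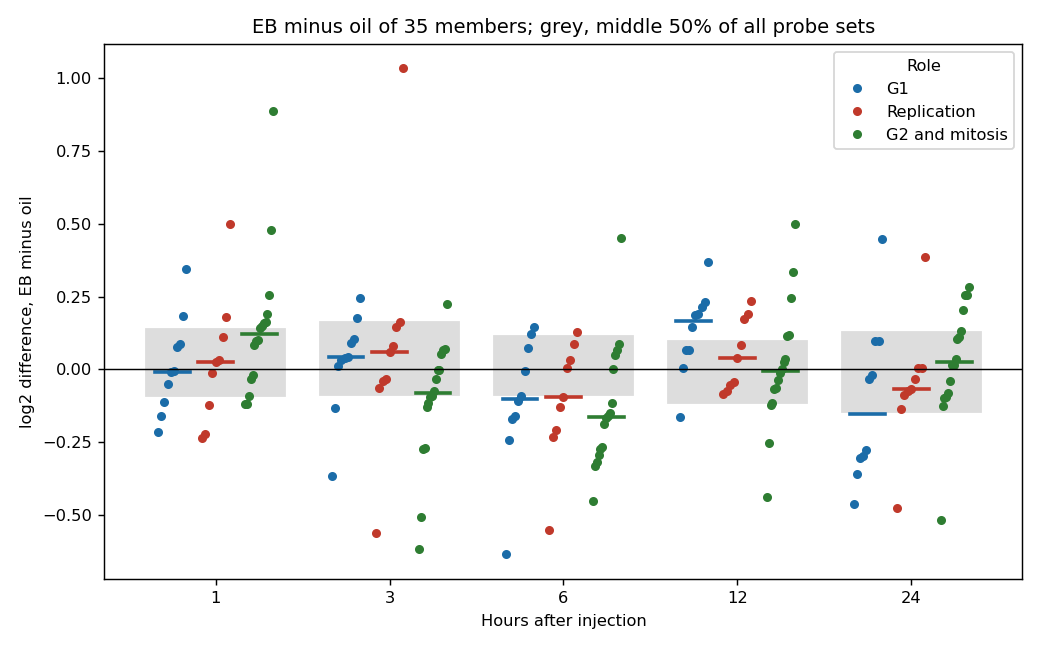
Log2 difference of EB minus oil (y axis) for each of the 35 tested members at each time (x axis, hours after injection, evenly spaced), coloured by role, with bars at role medians and grey boxes for the middle 50% of all probe sets. No point passed the adjusted test. The extremes are Mcm2 at 1.03 at 3 h, Bub1b at 0.89 at 1 h and Ccnd2 at -0.64 at 6 h.

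At 24 h 5 of 35 members had an unadjusted p under 0.05 by limma, where 15.7% of all probe sets did, and 4 of the 5 were of G1. Cdkn1c was lower in EB by -0.46 (95% interval -0.82 to -0.11, adjusted p = 0.17 from limma), Cdkn1b by -0.28 (-0.50 to -0.05, adjusted p = 0.20) and Cdk6, a partner of D-type cyclins, by -0.36 (-0.69 to -0.03, adjusted p = 0.26). Ccne1 was at 0.45 (0.08 to 0.81, adjusted p = 0.20) and Mcm5 at 0.39 (0.08 to 0.69, adjusted p = 0.18 from limma). Other tested sets had the opposite sign for Cdk6 (1455287_at, 0.22) and Ccne1 (1416492_at, -0.09) and the same sign for Cdkn1b (1419497_at, -0.15) and Mcm5 (1415945_at, 0.10). The 3 EB arrays lay below the 3 oil arrays for Cdkn1c and Cdkn1b and above them for Ccne1 and Mcm5. In all, 5 of 35 members had groups that did not overlap at 24 h, the other being Pcna, lower in EB, against 24.1% of all probe sets. With array weights Cdkn1b (-0.30) and Mcm5 (0.41) passed at 24 h with adjusted p of 0.0496 and 0.0478 from limma, and when limma was fitted to only the 6 arrays of 24 h Cdkn1c passed (adjusted p = 0.022). At the same time all 12 leptomeningeal fibroblast markers were lower in EB, with a median of -2.79 and a summed signal of 332 to 4320 against 8040 to 9720 in oil, 1 of 12 neuronal, 1 of 13 progenitor and 1 of 9 microglial markers were lower, the 1 tested erythroid marker was higher, and no endothelial or oligodendrocyte progenitor marker passed. Their part in the values at 24 h was not tested.

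At the earlier times the members with an unadjusted p under 0.05 were Mcm7 (-0.24) and Pcna (0.18) at 1 h, Cdkn1c (-0.37) and Mcm2 (1.03) at 3 h, Ccnd2 (-0.64) and Top2a (-0.45), the topoisomerase that untangles chromosomes, at 6 h, and Ccnd3 (0.37) and Pcna (0.19) at 12 h. Their adjusted p lay between 0.235 and 0.755 by limma. The EB and oil groups did not overlap for 6 of 35 members at 1 h (17.6% of all probe sets) and 4 at 3 h (14%). This was so for 6 members at 6 h (9.98%) and 1 at 12 h (11.3%). The 6 at 6 h were all lower in EB: Ccnd1, Top2a, Ccnb2, Cdk1, Birc5 and Kif11. The -0.64 of Ccnd2 was set against the oil group that holds the array at 1099. The 1.03 of Mcm2 rested on oil signals of 30.02, 36.4 and 57.9 against 62.6, 129 and 67.6, and its other tested set, 1448777_at, was at 0.01. The mitotic members had medians of 0.12, -0.08, -0.16, -0.01 and 0.03 at the 5 times in order. The median at 12 h ran from -0.222 to 0.286 over the fits without 1 array, with 3 to 14 of these members lower in EB.

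The rest of the pathway, 139 other cell cycle genes of which 115 were tested, included 28 (24.3%, against 34.1% of all probe sets) that changed over time in oil: 12 of 39 replication genes, 6 of 42 mitotic genes and 10 of 34 regulators of G1, checkpoints and inhibitors. At 6 h in oil 4 rose and 4 fell (6.96%, against 15.4% of all probe sets), at 12 h 16 rose and 9 fell (21.7%, against 30.6%), and at 24 h 2 rose and 2 fell (3.48%, against 6.77%). Cks1b, which encodes a small subunit of cyclin-dependent kinases, read 493, 492 and 481 at 1 h, 762, 714 and 704 at 6 h, and 583, 553.5 and 625 at 24 h in oil, without overlap between these times, and was 0.26 higher at 24 h (SE 0.08, adjusted p = 0.041 from limma), but at -0.04 without scaling. Mycn, a Myc family factor, read 247, 234 and 222 at 1 h and 311, 356 and 366 at 24 h and rose by 0.55 (SE 0.14, adjusted p = 0.013). Cdt1, which loads the helicase onto replication origins, read 162, 159.8 and 189 at 1 h and 108, 109.7 and 134 at 24 h and fell by 0.54 (SE 0.16, adjusted p = 0.034). Ube2c, the ubiquitin-conjugating partner of the anaphase-promoting complex, read 91.8, 110.3 and 99.99 at 1 h and 64.4, 69.2 and 70.95 at 24 h and fell by 0.56 (SE 0.17, adjusted p = 0.048 from limma). The groups of 1 h and 24 h did not overlap for any of these 4 genes, which was also so for 30.7% of all probe sets. Each of these calls was lost in 3 to 20 of the 30 fits that left out 1 array. Of the other mitotic genes 29 of 42 were negative in oil at 24 h and 31 of 42 in EB, with medians of -0.10 and -0.18.

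For EB against oil 1 of the 115 passed at 24 h by limma, a share below the 2.77% of all probe sets that passed. At 1, 3, 6 and 12 h 0 passed, against 0.0037%, 0.474%, 0% and 0% of all probe sets. At these times an unadjusted p under 0.05 was seen for 2, 20, 11 and 7 genes in order, where all probe sets had 8.63%, 12.8%, 6.02% and 6.57%. Gadd45b, a stress-induced growth arrest gene, read 47.4, 44.5 and 43.2 in oil and 16.25, 33.4 and 18.2 in EB at 24 h, with no overlap, and was lower in EB by a log2 difference of -1.07 (SE 0.26, adjusted p = 0.022 from limma). It is dim on these arrays, the mean over all probe sets of the gene was at -0.45 (adjusted p = 0.53 from limma), the leptomeningeal markers moved in the same arrays, and their part was not tested. The call was lost without any 1 of the oil 24 h arrays or without EB 24 h replicate 1 or 3 (adjusted p up to 0.157 from limma).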

How the data were processed

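Hypothalamic RNA of 30 mice was hybridised to Affymetrix Mouse Genome 430 2.0 arrays, 3 for each of 10 groups of treatment and time. The deposited values are intensity on a linear scale, made by the authors with MAS5, whose version and target are not given here. Array columns without a sample numbered 0. Each array was multiplied so that its median equalled the mean median (41.3), signals under 1 were set to 1 and log2 was taken. After removal of 64 controls and of the dimmest 40% (mean log2 signal), 27022 of 45037 probe sets remained. A single limma model (3.58.1, R 4.3.3) held the 10 group means of the 30 arrays, with trended eBayes moderation, and p was adjusted by Benjamini-Hochberg over the probe sets kept. Probe sets with several symbols (932) or none (9160) were not named. The fit was tested on simulated data. Values in every array are given for members past the threshold and the brightest of each role, and of the other genes up to 6 rising and 6 falling in oil at 24 h and at each time of EB against oil. The members and lists were chosen with earlier results of these data known. Alternatives changed the scaling, normalization, floor, filter, array weights, moderation, probe sets, arrays fitted, replicate block and single arrays.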

Additional observations from a re-analysis of the deposited data

Results flagged for a closer look

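Gadd45b was singled out because its difference between EB and oil varied with time. The treatment by time interaction had F = 7.14 (adjusted p = 0.045 from limma), a test that 0.951% of all probe sets passed. The log2 difference of EB minus oil was 0.86 at 12 h and -1.07 at 24 h. At 12 h the oil arrays read 35.6, 31.1 and 26.7 and the EB arrays 66.2, 52.8 and 50.8. The interaction did not pass in 18 of the 30 fits that left out 1 array, with F between 5.24 and 10.4, nor without scaling (F = 4.05). All 12 leptomeningeal markers were lower in EB at 24 h, and their part was not tested.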

How the results depend on the processing

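The 0 members past the threshold for EB against oil at 1, 3, 6 and 12 h and averaged remained 0 under all alternatives run, and leaving out each array in turn gave 0 to 0 for every EB comparison and the interaction. For members, no scaling gave 34 over time in oil, 0 at 6 h, 29 at 12 h, 3 at 24 h and 1 in EB at 24 h, with the median of all probe sets at -0.11, 0.81 and -0.25 at the 3 oil times. Quantile normalization gave 4 at 12 h. Array weights gave 13 over time in oil, 2 at 24 h in oil, 5 in EB at 24 h, 2 for EB against oil at 24 h and 1 in the interaction. Most of these counts stand without the share of all probe sets under the same alternative. They show dependence on the processing and not a result about the members. The mean of all probe sets, with 23 members tested, gave 2 at 6 h, 3 at 12 h, 2 at 24 h and 1 in EB. Only the arrays compared gave 2 at 6 h and 1 for EB against oil at 24 h. Over the fits without 1 array the count for time in oil was 6 to 11, where 25.2% to 36.1% of all probe sets passed. For oil 6 h it was 1 to 7, for oil 12 h 3 to 7, for oil 24 h 0 to 1 and for EB 24 h 2 to 3. The 6 h count was 1 without oil 6 h replicate 2 and 7 without replicate 1, the 12 h count 3 without oil 1 h replicate 3, and the 24 h count 0 without oil 24 h replicate 2. The cause was not tested.

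For the 115 other genes, no scaling gave 111 over time in oil, and 0 for EB against oil at 24 h and in the interaction, with Cks1b at -0.037 at 24 h in oil. Quantile normalization gave 0 in the interaction, no filter 1 at 24 h and 0 in the interaction, and the lowest 60% left out 0 and 0 for EB at 24 h and the interaction. Array weights gave 45 over time, 10 at 24 h, 2 for EB at 24 h and 2 in the interaction. The share of all probe sets under array weights is not given here, so a change of the whole array cannot be told apart. The methods' factorial model without moderation gave 2 for EB at 24 h. The mean of all probe sets gave 18 over time, 1 at 24 h, and 0 for EB at 24 h and the interaction. Only the arrays compared gave 7 at 24 h in oil and 0 for EB. Without each array in turn these were 17 to 31, 0 to 7, 0 to 1 and 0 to 1. The replicate block gave 8 members over time in oil, without Mcm6, and 5 at 6 h, with Ccnd3 (0.496, adjusted p = 0.0474 from limma), and changed no other call on members. Same-numbered arrays did not deviate together (0 of 15 pairs correlated over 0.1, from -0.132 to 0.088), and 12 of 30 arrays correlated best with their own number.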
